A study of Ovis aries with 2 samples.

Results

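The genes described here are the laminin chains and integrin subunits of lamb skin, taken as every gene of the table whose symbol is LAMA, LAMB or LAMC with a number, or ITGA or ITGB with a number or letter. This rule gave 32 of 18161 genes, of which 10 are laminin chains, 16 are integrin α subunits and 6 are integrin β subunits. Skin of the body side was taken from Hu sheep lambs at 3 days of age, and the study compared straight wool lambs with curly (waved) wool lambs to learn what underlies wool curvature. Skins were pooled within each wool type, cells from isolated follicles were mixed with cells from whole skin, and each pool gave 1 library of 10x single-cell RNA sequencing. The straight library holds 6452 cells and 57956122 UMIs (a UMI marks 1 captured RNA molecule), with a median of 7373.5 per cell, and the curly library holds 7585 cells and 77634565 UMIs, with a median of 7495. Each wool type has a single library, so wool type cannot be told apart from the pool of lambs, values are given per library and no test was made.

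Laminins are trimers of an α, a β and a γ chain that form the sheet of the basement membrane on which epithelia, vessels and nerves rest. Integrins are surface receptors of an α and a β subunit, and several of them hold cells to laminin. In epidermis and follicle, the α6β4 integrin joins laminin to the keratin filaments through the hemidesmosome, while integrins that contain β1 connect to actin through talin, kindlin and other adaptors.

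Levels are given as CPM, that is, a gene's UMIs per 1000000 UMIs of its cell class, and the 95% interval given with a level is the exact Poisson interval, which covers counting error only. Where a gene had 0 UMIs, the level said to be allowed is that of 3 UMIs, which lies below the upper end of that interval. Cells were clustered without the laminin, integrin and partner genes, which gave 20 clusters, and 16 of them received 1 of 14 class names from marker genes. The named classes hold 91.12% of straight cells and 80.04% of curly cells. Most markers peaked in their own class (6 of 6 for dermal fibroblast-like and for immune-like cells, 5 of 5 for inner root sheath-like cells and 6 of 7 for endothelial-like cells). Only 1 of 4 did so for basal and for cycling basal epidermis-like cells and 0 of 5 for cycling matrix-like cells. For hair follicle stem-like cells 2 of 4 did so, and for vascular smooth muscle and pericyte-like cells 3 of 5. The immune-like cluster was led by the mast cell tryptase TPSB2 among other genes. The libraries shared 70 cell barcodes.

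In 3 classes the libraries stood apart. Clustered without integration, 99.6% of the straight dermal papilla-like cells fell in a cluster led by WIF1, and 95.83% of the curly ones in a cluster led by COL1A1. By the same marker rule the WIF1-led cluster was named dermal papilla-like and the COL1A1-led cluster dermal fibroblast-like. CRABP1, APOD and LAMC3 were also among the leading genes of the COL1A1-led cluster. Of the hair follicle stem-like cells, 99.72% of the straight ones fell in a cluster led by SFTPC and 85.26% of the curly ones in a cluster led by LCN2 and LGR5. Of the basal epidermis-like cells, 96.62% of the straight ones fell in the same SFTPC-led cluster and 78.22% of the curly ones in a cluster led by BST-2A. A ratio of curly over straight skin within these classes therefore sets cells of different clusters against each other, and wool type, lambs and library cannot be told apart there. Suprabasal epidermis-like cells differed in part, with 26.91% of the straight but 1.95% of the curly ones in the SFTPC-led cluster. Myoepithelial-like, cycling matrix-like, hair shaft-like, endothelial-like and sweat gland luminal-like cells kept at least 96.45% of each library in a shared cluster.

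Detection set the depth of what follows. Of the 32 genes, 26 had at least 100 UMIs over all cells, namely 9 laminin chains, 11 α subunits and 6 β subunits. ITGB1, the common β subunit, had the most UMIs with 15546, with a UMI in 56.68% of straight wool cells and in 44.67% of curly wool cells. ITGA6 followed with 6170 UMIs, ITGB4 with 5954 and LAMB3 with 5484. The 6 genes below 100 UMIs were ITGA10 with 75, ITGA4 with 35, ITGA11 with 27, ITGAL with 24, ITGAD with 10 and LAMA1 with 9. Counts of 3′ tags depend on how well each gene's end is captured, so totals and levels of different genes do not rank their expression.

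A clear division of the genes between cell classes appeared in both libraries. Of the 26 genes, 19 had their highest class level in the same class in straight and curly skin, where 43.7% of all 13196 genes with at least 100 UMIs did so. Dermal fibroblast-like cells held the peak of 5 laminin chains (LAMA2, LAMA4, LAMB1, LAMC1 and LAMC3). With libraries pooled and cells with under 1000 genes left out, LAMA4, LAMB1 and LAMC1 were higher in another class. In the curly library alone, LAMA2 and LAMC3 were then higher in dermal papilla-like cells. Myoepithelial-like cells held the peak of LAMA3, LAMB3, ITGA6 and ITGB1. Vascular smooth muscle and pericyte-like cells were highest for ITGA1, ITGA7 and ITGA8, and immune-like cells for ITGA9, ITGA2B and ITGB7. ITGB4 peaked in hair follicle stem-like cells, ITGA3 in basal epidermis-like cells, ITGA5 in endothelial-like cells and ITGB6 in sweat gland luminal-like cells. For 9 of the 19 genes the interval of the highest class lay apart from that of the second class in both libraries. No share over all genes is given beside this count, so it describes these genes alone.

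**Figure D1:**
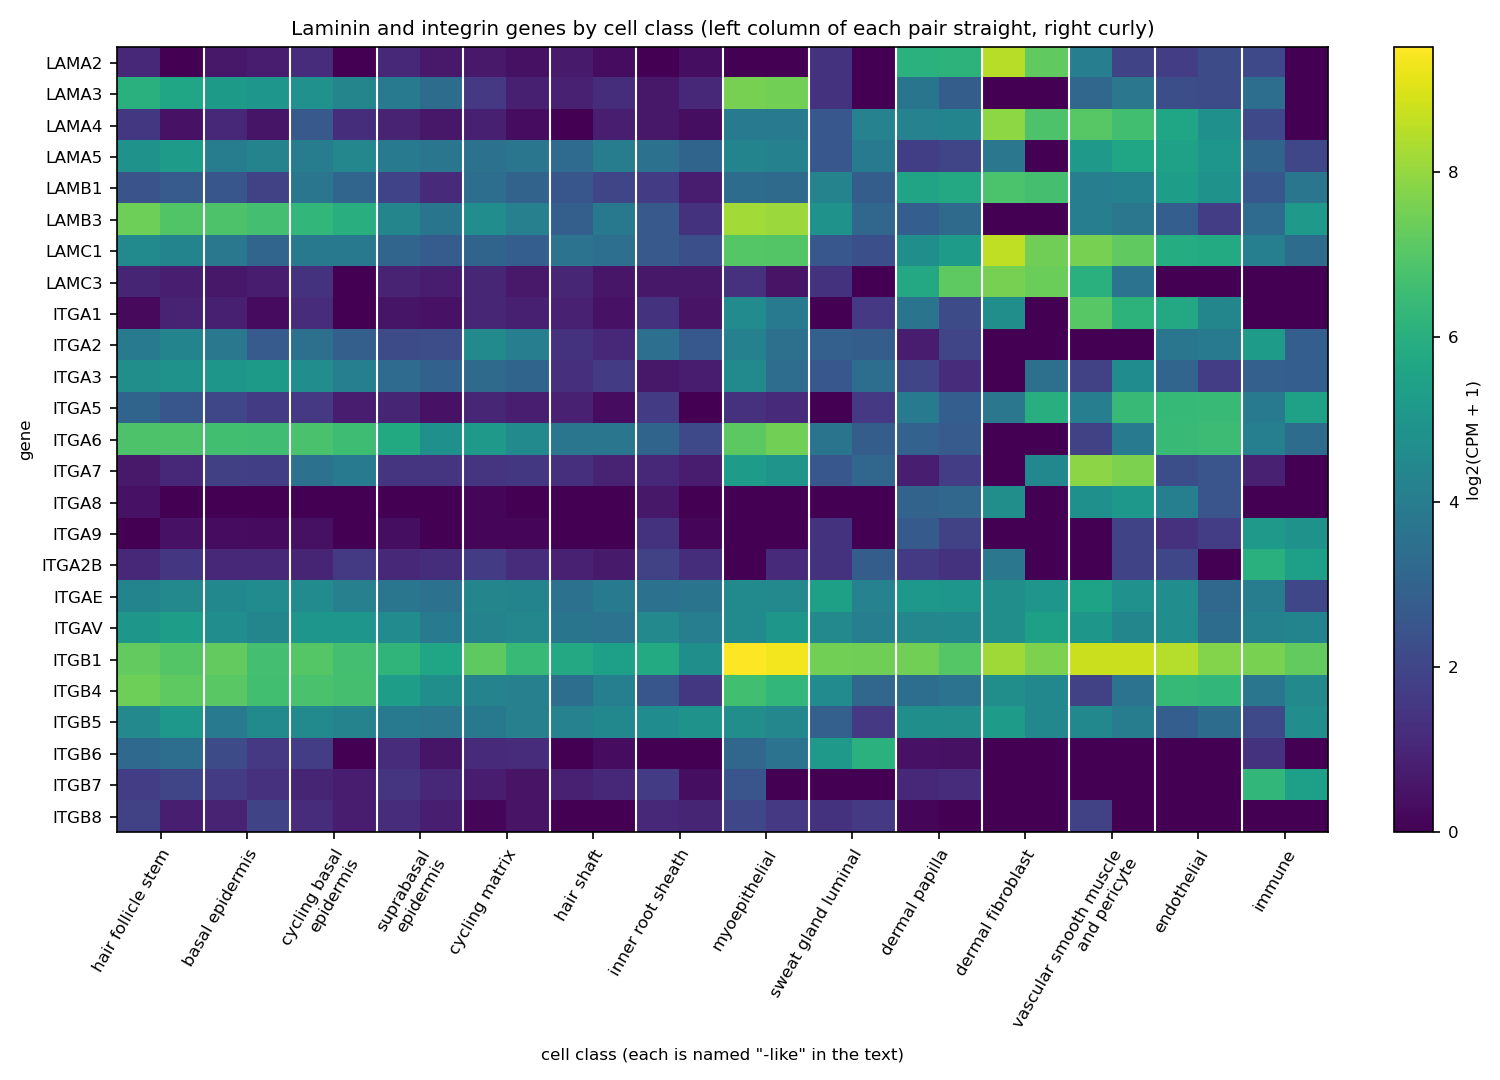
Colour gives log2(CPM + 1) of 25 genes with at least 100 UMIs, with genes in rows and the 14 cell classes in pairs of columns, straight on the left and curly on the right. LAMA3, LAMB3, ITGA6 and ITGB4 fill the epithelial columns on the left and the myoepithelial columns, LAMA2, LAMA4 and LAMC3 the dermal columns, and ITGB1 is present in every column.

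The epithelial laminin chains and their receptor were concentrated in cells with basal keratins. LAMB3, a β chain of epithelial laminin, stood at 289.7 CPM (95% interval 249.7 to 334.3) in the straight library and 267.0 CPM (247.1 to 288.2) in the curly library in myoepithelial-like cells. In hair follicle stem-like cells it stood at 169.3 and 122.3 CPM, and in basal epidermis-like cells at 114.3 and 102.0 CPM. LAMA3, an α chain of epithelial laminin, had the same order, with 185.9 and 179.1 CPM in myoepithelial-like, 63.83 and 48.14 CPM in hair follicle stem-like and 35.0 and 30.87 CPM in basal epidermis-like cells. For both chains the intervals of the first 2 of these classes did not overlap in either library.

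ITGB4, the hemidesmosomal β subunit, had 171.4 CPM (160.4 to 183.0) in the straight library and 141.3 CPM (131.5 to 151.7) in the curly library in hair follicle stem-like cells. Next came basal epidermis-like cells in straight skin at 132.4 CPM and cycling basal epidermis-like cells in curly skin at 104.1 CPM, and both intervals lay below that of the stem-like cells. ITGB4 UMIs were found in 63.88% and 55.19% of hair follicle stem-like cells, against 3.33% and 5.44% of immune-like cells, which should lack it. Median depth was 7123 and 6311.5 UMIs in the stem-like cells and 3357 and 1985 in the immune-like cells. With every cell thinned to 2000 UMIs the shares were 30.0% and 25.19% in stem-like and 0.772% and 2.17% in immune-like cells. The hair follicle stem-like class joins an LGR5-led cluster with 342 straight and 593 curly cells and another with 364 and 255. ITGB4 was higher in the LGR5-led cluster in both libraries, at 221.4 against 142.9 CPM in straight and 166.6 against 98.59 CPM in curly skin.

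ITGA6, the partner of ITGB4, was highest in myoepithelial-like cells at 137.9 CPM (110.7 to 169.7) in the straight library and 176.7 CPM (160.5 to 194.0) in the curly library. Its level in hair follicle stem-like cells, 113.3 and 114.2 CPM, was close to that of basal epidermis-like cells, 98.01 and 96.35 CPM. ITGA3, which pairs with β1 as another laminin receptor, stood at 31.38 and 35.47 CPM in basal epidermis-like and at 24.84 and 28.77 CPM in hair follicle stem-like cells, and the intervals of these neighbours overlapped.

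**Figure D2:**
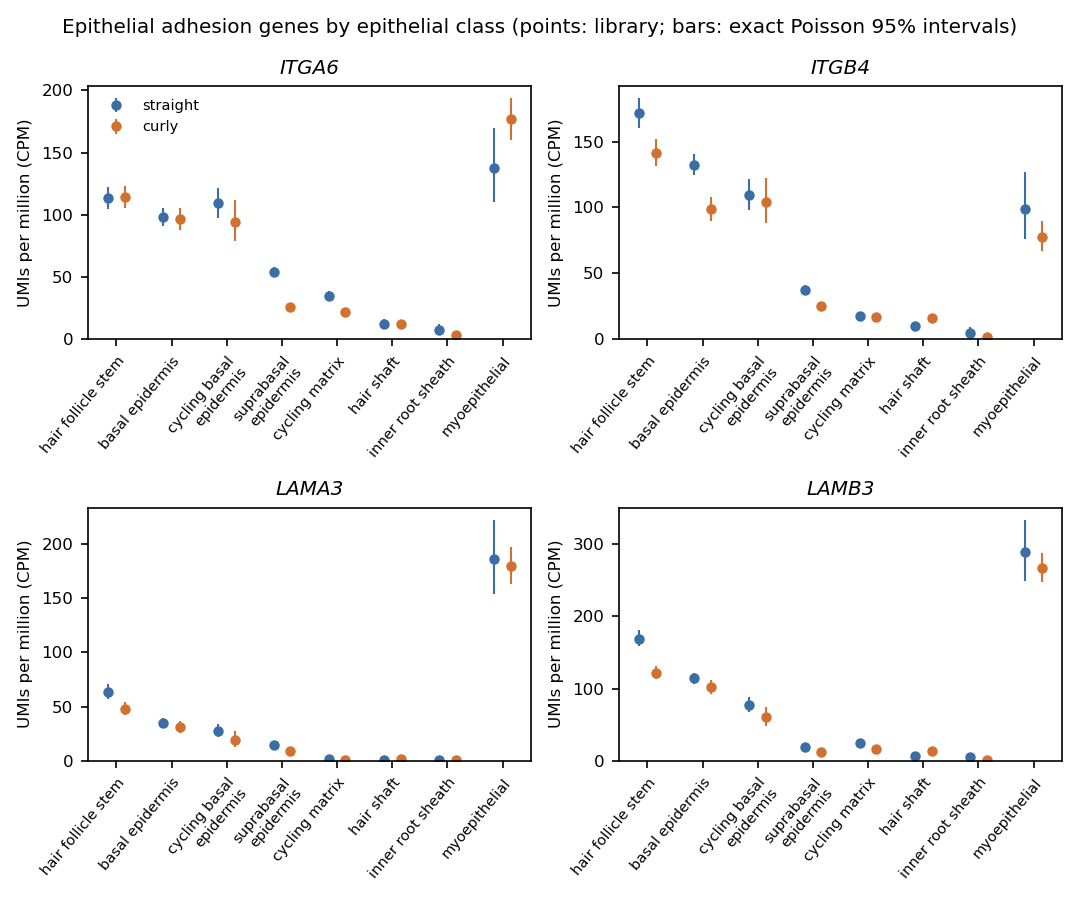
Each panel plots the level of ITGA6, ITGB4, LAMA3 or LAMB3 in CPM for 8 epithelial classes, with a point per library and bars for exact Poisson 95% intervals. The 4 genes are high in hair follicle stem-like, basal epidermis-like and myoepithelial-like cells and low in hair shaft-like and inner root sheath-like cells in both libraries.

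Suprabasal cells, which have left the basement membrane, had lower levels of the epithelial laminin chains LAMA3 and LAMB3 and of ITGB4 and ITGA3. Between suprabasal and basal epidermis-like cells, 4 of 12 genes were at least 2-fold lower in both libraries and 0 were higher, where 5.3% of all 10025 genes were lower and 5.45% were higher. LAMB3 differed most, by a log2 ratio of −2.59 in straight and −3.11 in curly skin. ITGB4 had ratios of −1.81 and −1.96, ITGA3 of −1.78 and −2.40, and LAMA3 of −1.29 and −1.74. The suprabasal class joins a KRT79-rich and an FLG-rich cluster, which differed. ITGB4 stood at 20.55 and 7.854 CPM in the KRT79-rich but at 64.56 and 49.25 CPM in the FLG-rich cluster. LAMA3 in the FLG-rich cluster stood at 22.96 and 16.01 CPM, against 35.0 and 30.87 CPM in basal epidermis-like cells. ITGA6 had a ratio of −0.86 in straight skin and −1.88 in curly skin, and so passed 2-fold in the curly library alone. ITGB1 lay at the limit with −0.99 and −1.06. ITGAV, the α subunit of several fibronectin and vitronectin receptors, had ratios of −0.07 and −0.46. The median over the 12 genes was −0.92 and −1.06, beside −0.11 and −0.19 over all genes. Cycling and non-cycling basal epidermis-like cells gave 0 of 12 genes past 2-fold in both libraries in either direction, beside 1.3% of all genes lower and 4.87% higher in cycling cells.

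The hair matrix, whose dividing cells build the wool fibre, held little of the hemidesmosomal set. In cycling matrix-like cells, 8 of 14 genes were at least 2-fold lower than in hair follicle stem-like cells in both libraries and 0 were higher, beside 13.9% of all 10097 genes lower and 9.37% higher. LAMA3 stood at 2.016 and 0.803 CPM in matrix-like cells, a log2 ratio of −4.99 in straight and −5.91 in curly skin. ITGB4 had ratios of −3.25 and −3.09, and LAMB3 of −2.78 and −2.89. ITGB6 (−2.80 and −2.89), ITGA6 (−1.70 and −2.36), ITGA3 (−1.51 and −1.97), LAMC1 (−1.60 and −1.60) and LAMA5 (−1.42 and −1.52) made up the rest. ITGB1 had 141.5 and 84.78 CPM in the matrix beside 149.1 and 123.8 CPM in the stem cell class, so that its ratio stayed within 2-fold. ITGA2, the collagen-binding α2 subunit, also stayed within 2-fold, with 21.73 and 15.59 CPM in matrix-like cells. The median over the 14 genes was −1.46 in straight and −1.56 in curly skin, beside −0.07 and −0.01 over all genes. Hair follicle stem-like and basal epidermis-like cells differed in 1 of 14 genes (0 lower, beside 1.53% of all genes, and 1 higher, beside 3.95%). The gene was ITGB6, at 8.6 and 9.776 CPM in stem-like cells against 3.616 and 1.971 CPM in basal cells.

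Some of these genes were lower again in the differentiated follicle layers. Inner root sheath-like cells had 7 of 12 genes at least 2-fold below cycling matrix-like cells in both libraries and 0 above, beside 11.5% of all genes lower and 3.53% higher. They were ITGA2, ITGA3, ITGA6, ITGB1, ITGB4, LAMB1 and LAMB3, with ITGB4 at 4.779 and 1.909 CPM. ITGB5, which pairs with αV, had a positive ratio of 0.85 in straight and 0.77 in curly skin. The median over the 12 genes was −1.23 and −1.66, beside −0.17 and −0.35 over all genes. Hair shaft-like cells had 4 of 12 genes lower than cycling matrix-like cells (ITGA2, ITGA3, ITGB1 and LAMB1) and 0 higher, beside 11.4% and 4.84% of all genes. The ratio of ITGA2 there was −3.71 in straight and −3.80 in curly skin, and the median over the 12 genes was −0.95 and −0.64, beside −0.21 and −0.10 over all genes. Clustered at resolution 0.8, which splits the matrix-like cells further, the sheath comparison gave 3 of 10 genes and the shaft comparison 1 of 11. The shares over all genes given above belong to the main clustering. None is given at resolution 0.8, so these counts cannot be set against a background.

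**Figure D3:**
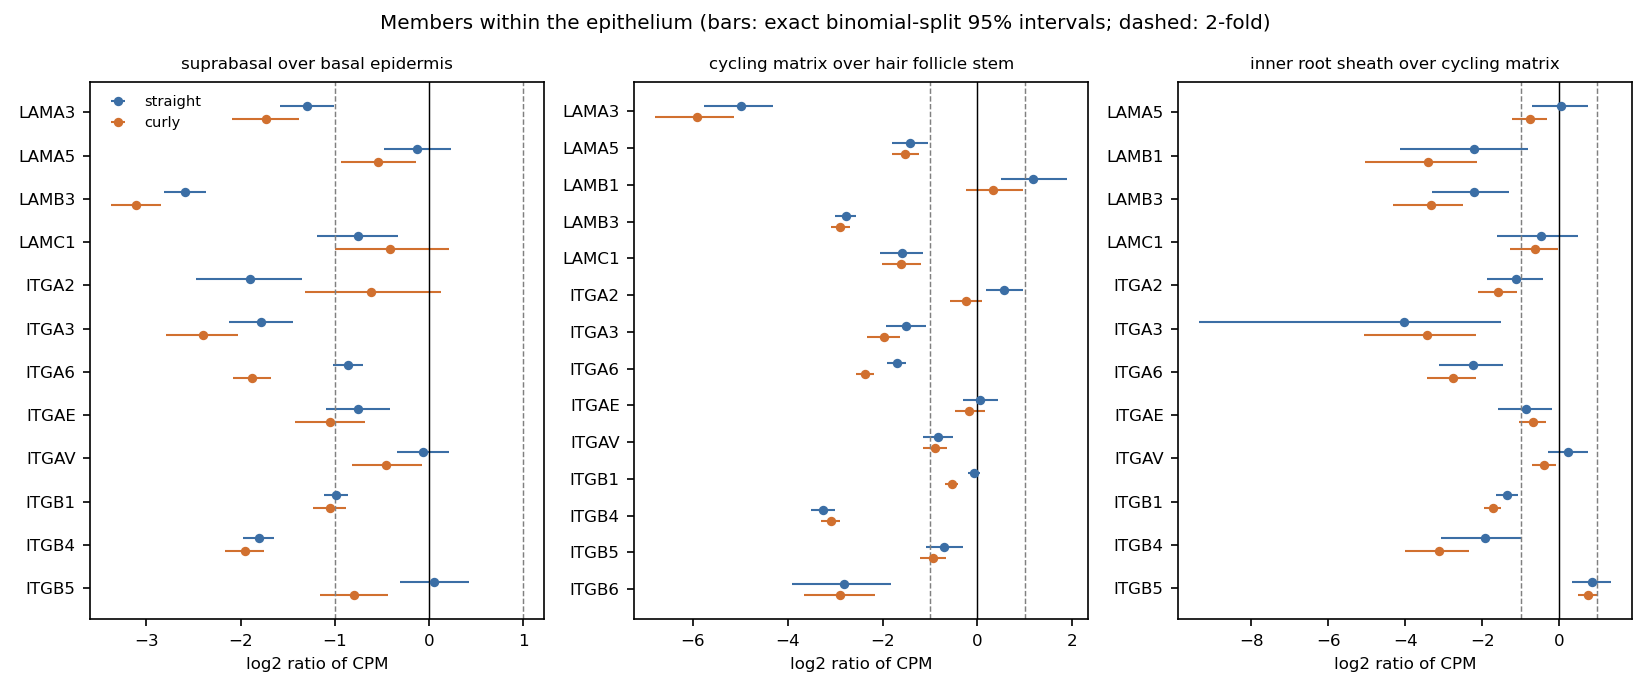
Points give the log2 ratio of CPM between 2 epithelial classes for each gene with at least 100 UMIs in the comparison, with straight in blue, curly in orange and exact 95% intervals of the split of UMIs as bars. Dashed lines mark 2-fold, and ITGA3, ITGB4 and LAMB3 lie below the lower line in all 3 panels in both libraries.

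The dermis used another set of laminin chains. LAMA2, the α chain of the laminins of muscle and nerve, stood at 66.94 CPM (61.35 to 72.9) in the straight library and 69.33 CPM (60.29 to 79.34) in the curly library in dermal papilla-like cells, against 0.517 and 0.657 CPM in basal epidermis-like cells. LAMB1 had 46.53 and 52.24 CPM in the dermal papilla class, and 4.778 and 2.628 CPM in basal epidermis-like cells. In these levels the libraries were close, with overlapping intervals for both genes. LAMC3, a γ chain, was found in dermal papilla-like cells at 52.24 and 141.6 CPM, while endothelial-like cells gave 0 UMIs in both libraries, which allows up to 2.297 CPM in the straight library and 3.471 CPM in the curly library.

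Dermal fibroblast-like cells had higher levels of these chains, from few molecules. The class has 46 straight and 56 curly cells with medians of 899 and 888 UMIs. LAMA2 stood there at 361.9 CPM (242.3 to 519.7, 29 UMIs) in the straight library and 144.7 CPM (79.11 to 242.8, 14 UMIs) in the curly library. LAMC1, the common γ chain, stood at 386.8 CPM (31 UMIs) and 175.7 CPM (17 UMIs), and LAMA4, an α chain of vessel and stromal laminins, at 237.1 CPM (19 UMIs) and 113.7 CPM (11 UMIs). With both libraries pooled and cells with under 1000 genes left out, LAMA2 was at 87.94 CPM, LAMA4 at 58.63, LAMC1 and LAMC3 each at 78.17 and LAMB1 at 39.09 CPM, so that the fibroblast levels rest on shallow cells. Under the same limit LAMA4 stood at 103.5 CPM and LAMC1 at 153.3 CPM in vascular smooth muscle and pericyte-like cells, above the fibroblast values. LAMB1 stood at 46.93 CPM in dermal papilla-like cells. In the curly library LAMA2 was then at 56.51 CPM (3 UMIs) in fibroblast-like against 65.87 CPM in dermal papilla-like cells, and LAMC3 at 94.18 (5 UMIs) against 131.1 CPM. In the straight library the values were 121.8 against 64.77 CPM and 60.92 against 48.42 CPM.

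Perivascular cells and endothelium shared LAMA4 and LAMC1, though neither gene was confined to them. In vascular smooth muscle and pericyte-like cells LAMA4 stood at 130.7 and 97.18 CPM and LAMC1 at 185.6 and 146.5 CPM. In endothelial-like cells LAMA4 stood at 48.25 and 26.61 CPM and LAMC1 at 58.2 and 55.54 CPM. Myoepithelial-like cells held LAMC1 above the endothelial level, at 127.0 and 125.1 CPM. Dermal papilla-like cells had LAMA4 at 17.62 and 18.73 CPM, and the dermal fibroblast-like levels of both genes are given above. LAMA5, the α chain of laminin-511, was spread widely, with 42.12 and 31.24 CPM in endothelial-like, 33.98 and 47.89 CPM in vascular smooth muscle and pericyte-like and 28.67 and 35.78 CPM in hair follicle stem-like cells, and its highest class differed between the libraries.

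**Figure D4:**
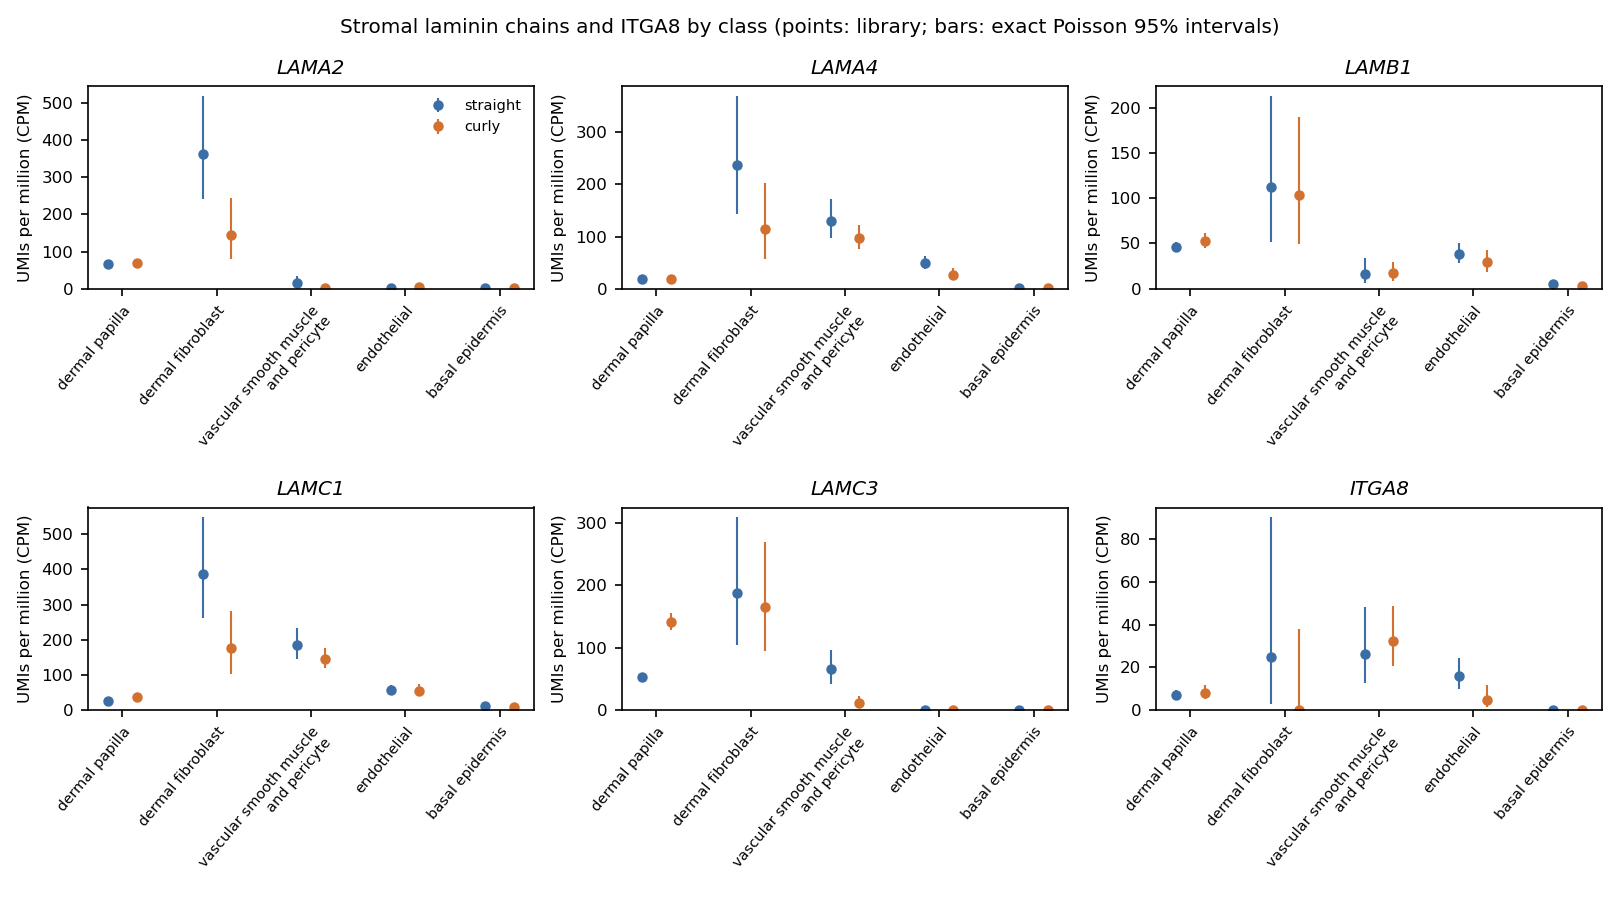
Each panel plots a stromal laminin chain or ITGA8 in CPM for 4 dermal and vascular classes and basal epidermis-like cells, with a point per library and exact Poisson 95% intervals as bars. Basal epidermis-like cells lie near 0 for LAMA2, LAMA4, LAMC3 and ITGA8, and LAMC3 in dermal papilla-like cells is at 52.24 CPM in the straight library and 141.6 CPM in the curly library.

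Contractile vessel cells held the peaks of ITGA7, ITGA1 and ITGA8. ITGA7, a laminin receptor subunit known from muscle, reached 232.6 CPM (186.8 to 286.3) in the straight library and 198.6 CPM (167.2 to 234.2) in the curly library in vascular smooth muscle and pericyte-like cells. Myoepithelial-like cells came second at 37.18 and 29.45 CPM. ITGA1, a collagen receptor subunit, stood at 130.7 and 69.01 CPM in the same vascular cells and at 52.07 and 19.67 CPM in endothelial-like cells. ITGA8, which binds nephronectin, stood at 26.14 CPM (10 UMIs) and 32.39 CPM (23 UMIs) in vascular smooth muscle and pericyte-like cells and at 7.1 and 7.886 CPM in dermal papilla-like cells. Basal, cycling basal and suprabasal epidermis-like cells gave 0 UMIs of ITGA8 in both libraries, which in basal cells allows up to 0.387 and 0.657 CPM. An unnamed cluster of 19 straight and 64 curly cells, led by genes without a name, also held ITGA7, at 274.1 and 85.35 CPM.

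ITGB1 was detected in every class and was highest in contractile cells. It stood at 728.1 CPM (663.7 to 797.0) and 649.9 CPM (618.5 to 682.4) in myoepithelial-like cells, then at 428.7 and 431.0 CPM in vascular smooth muscle and pericyte-like cells. Its lowest level among the classes was in hair shaft-like cells in straight skin, at 52.43 CPM, and in inner root sheath-like cells in curly skin, at 25.63 CPM. A further unnamed cluster, led by LCN2 and with KRT8 and KRT19 among its leading genes (26 straight and 87 curly cells), had ITGB1 at 544.5 and 346.3 CPM and ITGA6 at 157.8 and 139.5 CPM.

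Endothelial-like cells held ITGA5, the α subunit of the fibronectin receptor, at 81.94 CPM (67.15 to 99.02) and 86.78 CPM (68.26 to 108.8). In curly skin, vascular smooth muscle and pericyte-like cells stood beside them at 84.51 CPM, whereas in straight skin they stood at 15.68 CPM on 6 UMIs. Endothelial-like cells also held ITGB4 at 81.17 and 77.53 CPM and ITGA6 at 85.0 and 91.41 CPM. Keratin transcripts were present in this class too, with KRT14 (LOC101118459 in the table) at 887.6 and 620.2 CPM, against 10830.6 and 15377.2 CPM in basal epidermis-like cells. LAMB3 stood at 6.126 and 2.314 CPM in endothelial-like cells against 114.3 and 102.0 CPM in basal cells, and COL17A1 at 24.51 and 24.3 CPM against 343.2 and 427.4 CPM in basal cells. Immune-like cells, with KRT14 at 632.0 and 2983.5 CPM, had ITGB4 at 12.28 and 21.51 CPM. In endothelial-like cells without any UMI of KRT14, KRT5, LAMB3 or COL17A1, ITGB4 had 5 UMIs in 14 straight cells (132.7 CPM, 43.07 to 309.6) and 1 UMI in 5 curly cells.

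Immune-like cells held a leukocyte set. ITGB7 stood at 77.77 CPM (62.92 to 95.07, 95 UMIs) in the straight library and 39.94 CPM (21.27 to 68.31, 13 UMIs) in the curly library. ITGA2B, known as the platelet integrin subunit, stood at 63.85 and 39.94 CPM, and ITGA9 at 34.38 and 27.65 CPM. Among the other classes ITGB7 was highest at 4.647 CPM in straight myoepithelial-like cells (3 UMIs) and ITGA9 at 5.452 CPM in straight dermal papilla-like cells (43 UMIs). Dermal fibroblast-like cells gave 0 UMIs of either gene, which allows up to 37.43 and 31.01 CPM there. Without integration nearly all of the class divided into a TPSB2-rich cluster (282 straight and 71 curly cells) and a CD74-rich cluster (18 and 20). The TPSB2-rich cells held all 51 UMIs that ITGA9 had in the class, with 42 in the straight and 9 in the curly library, and ITGA2B there stood at 69.59 CPM over both libraries against 10.64 CPM in the CD74-rich cells, and ITGB7 at 78.28 against 31.93 CPM. ITGAL had 22 of its 24 UMIs in these cells. Of the common partners of such α subunits, ITGB2 and ITGB3 were not analysed here, and neither were ITGAM and ITGAX.

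ITGB6, the β subunit that binds latent TGF-β with αV, stood at 34.45 CPM (21 UMIs) and 67.17 CPM (34 UMIs) in sweat gland luminal-like cells, with the second class at 8.6 CPM in the straight library and 11.29 CPM in the curly library. ITGAV was found in every class, from 12.02 CPM in hair shaft-like to 31.91 CPM in hair follicle stem-like cells in straight skin, and from 9.257 CPM in endothelial-like to 41.34 CPM (4 UMIs) in dermal fibroblast-like cells in curly skin. ITGAE, known from T cells that reside in epithelium, was likewise found in every class, and immune-like cells held it at only 15.55 and 3.073 CPM. ITGB8 had 104 UMIs in all, with at most 15 in a class and library, and a level of 2.675 CPM in straight hair follicle stem-like cells (14 UMIs) and 2.847 CPM in curly basal epidermis-like cells (13 UMIs). In the shallow dermal fibroblast class its 0 UMIs allow up to 37.43 and 31.01 CPM.

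Subunits known to pair were then looked for at 20 CPM or more in the same class in both libraries. Of 36 textbook complexes, 25 had all chains in the table, namely 18 integrins and 7 laminins, and the others include ITGB2, ITGB3 or LAMB2, which were not analysed here. At this level 15 complexes were met in at least 1 class, giving 38 combinations of complex and class over 11 classes. Integrin α6β1 was met in 7 classes and α6β4 in 6, namely hair follicle stem-like, basal, cycling basal and suprabasal epidermis-like, myoepithelial-like and endothelial-like cells. Hair follicle stem-like, myoepithelial-like and endothelial-like cells each met 5 complexes, and dermal fibroblast-like cells 6. The 6 rest on few molecules, as the fibroblast-like class held 80140 straight and 96748 curly UMIs. For αVβ1 and αVβ5 its lowest chain, at 24.96 and 20.67 CPM, lay under the level of 3 UMIs. With cells under 1000 genes left out, this class had 11 straight and 10 curly cells and was not compared. The count of combinations was then 28. Laminin-211 and laminin-213 were met in dermal fibroblast-like and dermal papilla-like cells, laminin-411 in dermal fibroblast-like and endothelial-like cells, and laminin-511 in endothelial-like cells. These are transcripts of chains in the same class, and no complex was measured.

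The partner genes of adhesion followed the division between basal and suprabasal cells in part. Of 29 listed genes 27 were in the table. Of the 23 tested there, 8 were at least 2-fold lower in suprabasal than in basal epidermis-like cells in both libraries and 0 were higher, beside 5.3% of all genes lower and 5.45% higher. The 8 were DST, PXN, HSPG2, AGRN, BCAM, NPNT, ICAM1 and TGFB1. DST, which encodes the hemidesmosomal plakin BPAG1, had log2 ratios of −1.83 and −2.66, and BCAM, a laminin α5 receptor, had −2.21 and −1.63. COL17A1, the transmembrane collagen of the hemidesmosome, was at 223.9 and 161.0 CPM in suprabasal and at 343.2 and 427.4 CPM in basal epidermis-like cells, and did not pass 2-fold in both. In cycling matrix-like cells all 4 listed hemidesmosome genes were at least 2-fold below hair follicle stem-like cells in both libraries. Over all genes 13.9% were lower there and 9.37% higher. The log2 ratios were −2.92 and −3.03 for COL17A1, −2.78 and −2.43 for DST, −2.79 and −2.64 for CD151 and −1.63 and −1.98 for PLEC. Of the other partner genes tested there, HSPG2, AGRN and NPNT were also lower in both libraries. TLN2 was higher, with ratios of 1.26 and 1.23, and the rest, among them most adaptor genes and BCAM, did not pass 2-fold in both.

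The classes that held the adaptor genes and the basement membrane binders differed from gene to gene. TLN1, the actin linker talin, stood at 130.1 and 141.6 CPM in myoepithelial-like and at 151.6 and 138.0 CPM in vascular smooth muscle and pericyte-like cells, against 32.93 and 22.99 CPM in basal epidermis-like cells. FERMT2, a kindlin that activates integrins, stood at 141.0 and 283.2 CPM in myoepithelial-like cells. FERMT1, the kindlin of epithelia, was found at 45.46 and 35.69 CPM in basal epidermis-like cells and at 3.804 and 4.272 CPM in dermal papilla-like cells. FERMT3, the kindlin of blood cells, stood at 83.5 and 52.23 CPM in immune-like cells. NID1, which links laminin to collagen IV, stood at 34.11 and 25.3 CPM in dermal papilla-like and 49.01 and 41.66 CPM in endothelial-like cells, against 0.258 and 0.657 CPM in basal epidermis-like cells. AGRN, the proteoglycan agrin, lay the other way, at 45.1 and 87.61 CPM in hair follicle stem-like and 63.51 and 102.9 CPM in myoepithelial-like cells against 10.9 and 12.16 CPM in dermal papilla-like cells. NPNT, the nephronectin ligand of α8β1, had 52.55 and 41.87 CPM in the stem-like class, against 12.4 and 10.07 CPM in basal epidermis-like cells, a log2 ratio of 2.08 and 2.06.

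The comparison of wool types asked whether these genes differ between curly and straight skin within a class. Of 97 pairs of gene and class with at least 100 UMIs, 8 passed 2-fold (8.25%), where 6.64% of all 64795 pairs did so. Higher in curly skin were 2 pairs, beside 3.04% of all pairs, and 6 were lower, beside 3.61%. A share this near the background is no result about laminins and integrins as a group, and the pairs are given as values of these 2 libraries.

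Dermal papilla-like cells held 4 of the 8 pairs among 13 genes, 1 higher and 3 lower in curly skin, where 8.16% of all genes in this class passed 2-fold, 2.63% higher and 5.53% lower. LAMC3 stood at 52.24 CPM (47.31 to 57.53, 412 UMIs) in the straight library and 141.6 CPM (128.6 to 155.6, 431 UMIs) in the curly library, a log2 ratio of 1.44 (1.24 to 1.64). LAMC3 UMIs were found in 26.62% of straight and 44.75% of curly cells, although the median depth was 6088.5 UMIs in straight and 4537.5 in curly cells. Thinned to 2000 UMIs the shares were 11.58% and 24.54%. At resolution 0.8 the class split into a cluster led by SERPINF1 and SOX18 (631 straight and 456 curly cells) and another led by FGF7 (605 and 192). LAMC3 was higher in curly skin in both, with log2 ratios of 0.96 and 1.41. Without integration of the libraries the ratio was 0.82 in the class then named dermal papilla-like, which held 1240 straight but 25 curly cells. The 621 curly cells of the main class that fell in the COL1A1-led cluster, named dermal fibroblast-like there, had LAMC3 at 144.6 CPM. The 1231 straight cells of the main class in the WIF1-led cluster had 52.17 CPM (47.24 to 57.47). The 25 curly cells in that cluster had 92.15 CPM (49.07 to 157.6) on 13 UMIs, and the intervals overlapped. Over both clusters together, which take in nearly all cells of the main class, the log2 ratio was 1.41. In vascular smooth muscle and pericyte-like cells LAMC3 lay the other way, at 65.35 CPM (25 UMIs) in the straight library and 11.27 CPM (8 UMIs) in the curly library, below the limit of 100 UMIs for a comparison.

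The other 3 pairs in dermal papilla-like cells were lower in curly skin and rested on few UMIs. ITGA1 had 91 UMIs in straight and 11 in curly cells, a log2 ratio of −1.68 (−2.73 to −0.77). ITGA5 had 112 and 19 UMIs and a ratio of −1.19 (−1.97 to −0.48), and LAMA3 had 94 and 18 UMIs and a ratio of −1.01 (−1.83 to −0.27). With means of per-cell CPM the ratios of ITGA5 and LAMA3 were −0.58 and −0.84, ITGA5 had −0.92 after thinning and LAMA3 −0.99 after scaling by TMM, all within 2-fold. Between the finer clusters, the ITGA5 ratio was −2.32 in the FGF7-led and −0.16 in the SERPINF1-led cluster, and that of LAMA3 was −3.65 and −0.60. These ratios divide the 19 curly UMIs of ITGA5 and the 18 of LAMA3 between clusters, so their size and their difference are poorly measured. LAMA2 and LAMB1 in the same cells had intervals that overlapped between the libraries, as given above. Among the partners, FN1, the fibronectin ligand of α5β1, had 1520 UMIs in straight and 165 in curly dermal papilla-like cells, a ratio of −1.83, ICAM1 had a ratio of −2.40, TNC of −1.42, HSPG2 of −1.38 and DST of −1.23.

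Each of the remaining 4 pairs was a lone gene of its keratinocyte class. ITGA6, as 1 of 11 genes in suprabasal epidermis-like cells (8.05% of all genes passed 2-fold there), stood at 53.99 and 26.2 CPM in the straight and curly library, a log2 ratio of −1.04 (−1.24 to −0.85). Both clusters of this class went the same way, at 39.78 against 15.83 CPM in the KRT79-rich cluster and at 76.15 against 40.29 CPM in the FLG-rich cluster. The median of all genes in this class was −0.19. After scaling by TMM the ratio of ITGA6 was −0.83, and without integration it was −0.85, both within 2-fold. Without integration, 26.91% of the straight but 1.95% of the curly cells of this class fell in the SFTPC-led cluster. That cluster also held most straight basal epidermis-like cells, so the ratio compares unlike mixes of cells. ITGB1, as 1 of 4 genes in inner root sheath-like cells (4.73% of all genes), had a ratio of −1.12, and of −0.08 after thinning. LAMB3, as 1 of 9 genes in hair shaft-like cells (4.17% of all genes), had a ratio of 1.05 on 31 and 107 UMIs, and of 0.19 after thinning. ITGA2, as 1 of 12 genes in basal epidermis-like cells (5.78% of all genes), had 100 and 26 UMIs and a ratio of −1.18, of −0.68 with means of per-cell CPM and of −0.59 after thinning. In hair follicle stem-like cells, which clustered apart by library as given above, 0 of 12 genes passed 2-fold, beside 7.48% of all genes, and in cycling matrix-like cells 0 of 12, beside 2.83%. For the partner genes 21 of 196 pairs passed 2-fold (10.7%, beside 6.64% of all pairs), 1 higher (beside 3.04%) and 20 lower in curly skin (beside 3.61%). Among them were ICAM1 in 5 classes and PTK2, which encodes focal adhesion kinase, in 3. After thinning, 5 of 63 partner pairs passed, all lower in curly skin, and no share of all pairs after thinning is given beside them.

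**Figure D5:**
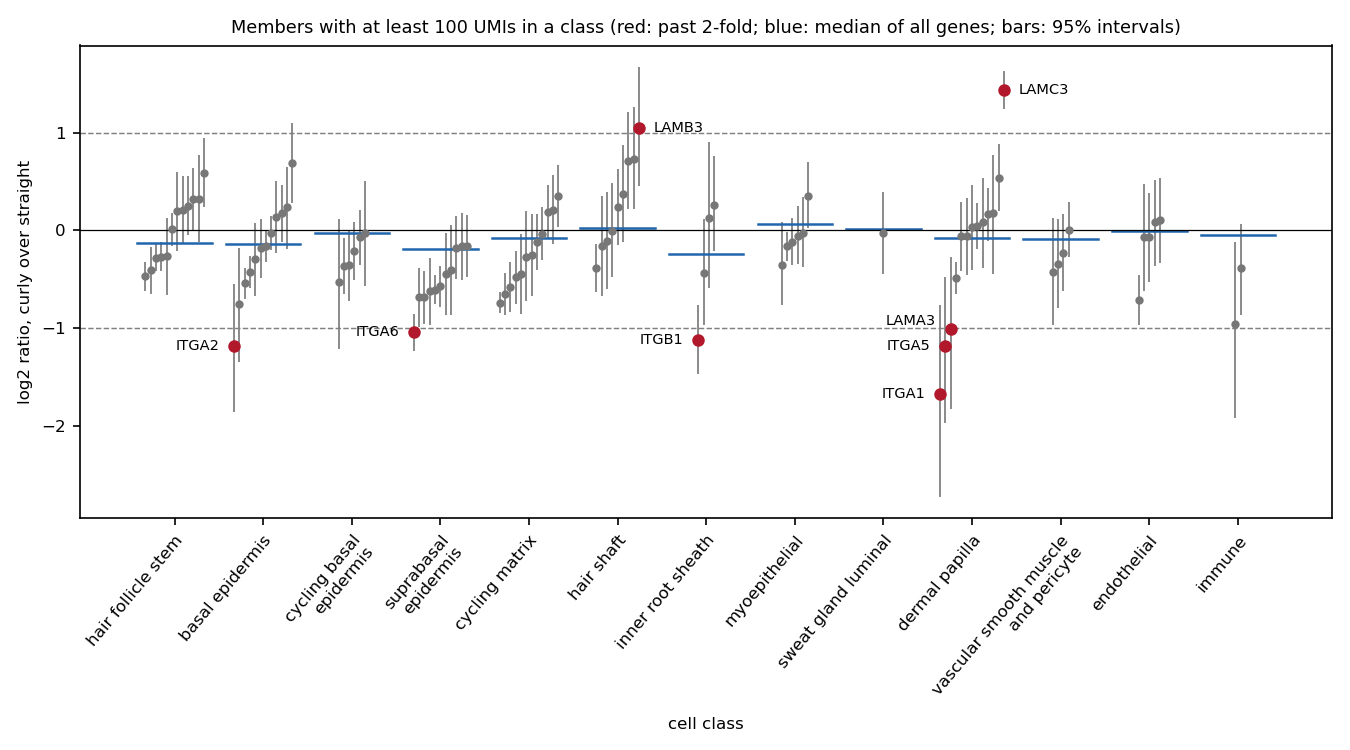
Points give the log2 ratio of curly over straight CPM for each gene with at least 100 UMIs in a class, with exact 95% intervals of the split of UMIs as bars and a blue line for the median of all genes of that class. Of 97 points 8 lie past the dashed 2-fold lines, and LAMC3 in dermal papilla-like cells at 1.44 is the highest.

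Genes with the most similar profile over 19 clusters were taken for ITGB4, LAMA4 and ITGA8, as the 5 genes with the highest smaller Pearson r of the 2 libraries. The clusters share libraries and differ in depth, so these values are descriptive. ITGB4 was nearest to CTNNAL1 (r = 0.896 in straight and 0.934 in curly skin) and COL17A1 (0.873 and 0.870), followed by CDCA7L, ITGA6 and DLL1. LAMA4 was nearest to ECM2 (0.962 and 0.937) and to NID2 (0.948 and 0.922), and after them to LIX1L, HSPB6 and RUNX1T1. ITGA8 was nearest to TMEM136 (0.964 and 0.934), with LOC105610561, PYGM, NR2F2 and WFDC1 next.

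Some of the rare genes also had a home. LAMA1 had 8 of its 9 UMIs in endothelial-like cells, and ITGA11, a collagen receptor subunit of fibroblasts, had 10 of its 27 UMIs in the 102 dermal fibroblast-like cells, at 62.39 CPM (20.26 to 145.6) in the straight library and 51.68 CPM (16.78 to 120.6) in the curly library. ITGA4 had 17 of its 35 UMIs in dermal papilla-like cells, but its level was higher in other classes. In straight skin it stood at 5.228 CPM in vascular smooth muscle and pericyte-like against 1.521 CPM in dermal papilla-like cells. Curly skin had 3.073 CPM in immune-like against 1.643 CPM in dermal papilla-like cells, and the intervals overlapped in both libraries. ITGAD had 0 UMIs in the straight library, which allows up to 0.0518 CPM, and 10 in the curly library. ITGA10 had at most 11 of its 75 UMIs in any cluster.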

How the data were processed

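Cells of pooled lamb skin (1 library of straight wool and 1 of curly wool) were sequenced on the 10x platform. Per the paper's methods, the authors aligned reads to Oar_rambouillet_v1.0 and counted UMIs with Cell Ranger (version 3.0.2 in the submitters' processing notes). What the authors deposited is a matrix (18161 genes, 14037 cells) of log-normalised expression, read from its values as UMIs per 10000 of a cell with 1 added on a natural log scale. It holds fewer cells than the study states after quality control, for a reason not known here. The design had assumed that counts might be held, so UMIs were calculated back from the smallest step of each cell, and 100% of 28552149 values above 0 were whole within 0.01. Depth was 57956122 UMIs in straight and 77634565 in curly cells, so 3 counts equal 0.0518 and 0.0386 CPM.

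Libraries were integrated by anchors in Seurat 5.3.0 (R 4.3.3) on 2000 variable genes and 30 dimensions, leaving out laminin, integrin and partner genes, and clustered at resolution 0.3. Clusters were named by the marker list with the highest mean log2 ratio (5 CPM added) if this was at least 1, with at least 3 markers found in 10% of cells. UMIs were summed per class and library. Log2 ratios carry exact intervals from the binomial split, and calls required 100 UMIs in the class or pair of classes and 2-fold. A class was compared with at least 25 cells in each library. The calculation was tested on simulated data. Python 3.11.15, numpy 2.4.6, scipy 1.17.1 and pandas 2.3.3 were used. Doublets were not removed: the Scrublet threshold in scanpy 1.11.5 called 0.899% of straight and 0.0264% of curly cells, and an alternative left out the highest 6% of scores in each library. For thinning to 2000 UMIs, 1037 straight and 1533 curly cells were too shallow.

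The members and lists were chosen with earlier results of these data known. Members found by the rule entered all counts, though results that rest on 1 of them are not reported here, and the complexes, partner genes and the genes most like ITGB4, LAMA4 and ITGA8 came from fixed lists and rules. Values of unnamed clusters, levels within clusters made without integration, KRT14, KRT5 and the comparisons among follicle classes were added after values were seen. Alternatives were cells with at least 1000 genes, doublet removal, means of per-cell CPM, resolution 0.8, no integration, TMM factors, other minimums, and thinning. All 32 symbols matched the RefSeq annotation of ARS-UI_Ramb_v3.0, used for names only.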

Additional observations from a re-analysis of the deposited data

How the results depend on the processing

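No paired analysis was possible because each wool type has 1 library, and for the same reason no replicate could be left out and no library stands for the spread between lambs. The count of genes with the same highest class (19) ranged from 15 to 23, and the count of genes lower in suprabasal than in basal cells (4) from 3 to 5, over the alternatives that gave a value. The 8 pairs of gene and class past 2-fold between wool types became 5 with means of per-cell CPM, 5 without integration, 34 with a minimum of 20 UMIs and 2 after thinning to 2000 UMIs, where fewer pairs were tested. The 38 combinations of complex and class became 23 without integration and 17 at 50 CPM. The 21 partner pairs became 45 with a minimum of 20 UMIs and 5 after thinning. The genes lower in inner root sheath-like than in cycling matrix-like cells (7) became 3 at resolution 0.8, those lower in hair shaft-like cells (4) became 1, and the genes lower in basal epidermis-like than in hair follicle stem-like cells (1) became 2 with means of per-cell CPM. No share over all genes is given beside the counts under these alternatives. Apart from what the smaller numbers tested show, the cause was not tested. At resolution 0.8 and without integration no non-cycling basal epidermis-like class was named, so the comparison with it has no value there. Of the single levels, 120 stayed within their counting interval under an alternative and 36 did not, and of the single log2 ratios 44 did and 8 did not, with 0 reversed. Dermal fibroblast-like levels and all ratios on under 20 UMIs in a library are limited by depth.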
